A study of Homo sapiens with 65 samples.

Results

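The epithelial-to-mesenchymal transition (EMT) genes described here, across the deposited count table, are 8: the transcription factors SNAI1, SNAI2, TWIST1, TWIST2, ZEB1, ZEB2 and PRRX1, and the filament gene VIM. They are 8 of 58735 genes in the table. The genes were chosen by measured values of these libraries in part: VIM had passed the test between groups at day 2.5 in both arms of the study, and PRRX1 had been higher at day 4.5 under early hyaluronidase. Values in those contrasts, and any other contrast of VIM or PRRX1 that uses the same libraries, are therefore given as a description, with no test. The libraries came from left-ventricular cardioids, heart-like aggregates grown from the human induced pluripotent stem cell line WTC-11, with 8 cardioids pooled per library and reads taken from the 3′ ends of transcripts.

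In the genotype arm, 41 libraries compared wild-type cells (WT) with clones labelled HAS2-KO (KO), in which the gene of a hyaluronan synthase was targeted. Collection was at day 1.5 (5 WT and 6 KO libraries), day 2.5 (6 and 6), day 4.5 (6 and 6) and day 7.5 (3 and 3). Clones named cl4, cl14, cl46 and cl51 gave the KO libraries, and WT libraries are named TNT2, cl43_WT_UT, WT_TU or WT. Several KO libraries are repeats of 1 clone: cl4 gave 3 of the 6 KO libraries at days 1.5, 2.5 and 4.5. At day 7.5 the KO libraries were cl4_R2, cl4_R3 and cl14_R1, and the WT libraries were WT_R1, WT_R2 and WT_TU_R2. The other clones and lines gave none at that day. In the enzyme arm, 24 libraries of WT genotype compared untreated cardioids with cardioids given hyaluronidase, an enzyme that digests hyaluronan, from day 1.5 (HAse1.5) or day 2.5 (HAse2.5). Each group held 3 libraries, 1 from each of the lines TNNI1, WT and TNNT2. The untreated group was collected at days 2.5, 4.5 and 7.5, HAse1.5 at the same days, and HAse2.5 from day 4.5 on. Per the labels' protocol, cells of both arms were dissociated and reseeded as aggregates at day 1.5 in media for the left ventricle. The labels call the cells cardiac progenitors up to day 4.5 and cardiomyocytes at day 7.5.

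EMT is the process by which attached epithelial cells lose their junctions, gain filaments and matrix contacts of mesenchymal cells, and become able to move. In the embryo it first occurs when epiblast cells leave the primitive streak as mesoderm, and again when cells of the heart cushions, epicardium and neural crest detach. The SNAI and ZEB proteins are zinc-finger repressors that bind E-boxes (short DNA sites such as CAGGTG) in genes of cell junctions, TWIST proteins are basic helix-loop-helix factors that bind E-boxes as dimers, and PRRX1 is a homeobox factor of mesenchymal progenitors. Vimentin, the product of VIM, is the main intermediate filament of mesenchymal cells. In bulk RNA, fewer cells of a type and less RNA per cell cannot be told apart.

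Promoter windows from RefSeq (GRCh38.p14) matched 5 of the 8 genes, all but SNAI1, SNAI2 and TWIST1. Below are the 250 bases before a start of VIM and before the first of the listed starts of ZEB1, shown because the mean levels of these genes moved in opposite directions after day 2.5; capitals mark E-boxes of the form CANNTG, a motif that is its own reverse complement.
VIM, chr10:17227991-17228240, plus strand: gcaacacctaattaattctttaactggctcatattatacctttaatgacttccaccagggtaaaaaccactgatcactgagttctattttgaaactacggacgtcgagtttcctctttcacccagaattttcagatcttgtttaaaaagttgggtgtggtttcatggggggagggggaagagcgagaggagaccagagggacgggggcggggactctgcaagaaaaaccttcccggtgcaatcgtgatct
ZEB1, chr10:31318167-31318416, plus strand: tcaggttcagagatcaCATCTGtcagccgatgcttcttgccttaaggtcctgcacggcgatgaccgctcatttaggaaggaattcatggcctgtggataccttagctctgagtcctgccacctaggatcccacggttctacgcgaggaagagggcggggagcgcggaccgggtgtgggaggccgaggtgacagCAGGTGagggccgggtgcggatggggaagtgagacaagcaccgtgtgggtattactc
The VIM window held 0 matches to CANNTG. The ZEB1 window held 2, and 1 of them was CAGGTG, the form that SNAI and ZEB proteins are known to bind (its reverse complement CACCTG was searched too, and both are also counted under CANNTG). Windows of other listed ZEB1 starts differed: that at 31319518 to 31319767 held 0 matches to CANNTG. The one at 31318966 to 31319215 held 2 matches to CAGGTG or its complement. Among 34943 windows of the same length, 61.8% held CANNTG and 17.5% held CAGGTG or its complement. A match describes letters only, and a window without one says nothing about the factor.

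On GRCh38 (GENCODE 29), VIM lies on chromosome 10 at 17228259 to 17237593 and ZEB1 on the same chromosome at 31318495 to 31529814, both on the plus strand. SNAI1 is at chromosome 20, 49982999 to 49988886 (plus strand). SNAI2 is at chromosome 8, 48917604 to 48921740, and TWIST1 at chromosome 7, 19020991 to 19117672, both on the minus strand. TWIST2 (238848032 to 238910543, plus strand) and ZEB2 (144364364 to 144524583, minus strand) are on chromosome 2, and PRRX1 is at chromosome 1, 170662728 to 170739419 (plus strand).

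Library totals ranged from 831062 to 3574843 counts (median 1570954), and levels are given as CPM, the count scaled to a common library total. A group with 3 counts or fewer in every library is called at the floor. After the filter on low counts, 7 of the 8 genes were tested in the genotype arm (all but PRRX1) and 6 of 8 in the enzyme arm (all but SNAI1 and TWIST2). HAS2, the targeted gene, had group means of 165 to 582 CPM in KO and 197 to 657 CPM in WT libraries, and 3′ reads outside a deleted part would not check the label. Library numbers of the genotype arm fall in 3 sets, called A, B and C here; at day 7.5 set A holds WT only, set C KO only, and set B both. Summed CPM of 6 cardiomyocyte markers was 24.5 to 106.5 in WT at day 1.5 and 26918.6 to 29249.8 at day 7.5. Summed CPM of 4 neural crest markers was at most 28.4 in the 65 libraries.

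VIM had its highest levels at day 2.5 in untreated and WT cardioids and lower levels afterwards. Its values of day 2.5 are those that chose the gene, so the steps to and from that day carry no test. WT libraries had 639, 857, 1075, 1139 and 1271 CPM at day 1.5. At day 2.5 they had 1474 (lowest), 2501 (median) and 2698 CPM (highest), so all 6 lay above every day 1.5 library. The log2 fold change of this step was 1.01 ± 0.22 (SE). From day 2.5 to 4.5 it was -1.59 ± 0.21, to between 472 and 983 CPM, again without overlap. At day 7.5 the 3 WT libraries had 464, 536 and 549.9 CPM, which overlapped day 4.5 (log2 fold change -0.49 ± 0.26, adjusted p = 0.41, edgeR).

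KO libraries had 828 to 1323 CPM at day 1.5 (median 1125) and 985 to 1614 CPM at day 2.5 (median 1314), which overlapped, with a log2 fold change of 0.02 ± 0.21 (95% interval -0.40 to 0.44). Whether this step differed from that of WT was not tested. At day 2.5 itself, VIM was at 1302 ± 209 CPM in KO (SD, n = 6) and 2285 ± 489 CPM in WT (n = 6), a log2 difference of -0.86 ± 0.21 that is a description only. 1 KO library (cl4_R1, set A, 1614 CPM) lay above 1 WT library (WT_TU_R1, set A, 1474 CPM), and no other pair of libraries overlapped. Within set B the KO library had 1195 CPM beside 1914 and 2399 CPM in WT, and within set C KO libraries had 985 to 1388 CPM beside 2623 and 2698 CPM. The next member by its difference over its error was TWIST1, with 0.77 ± 0.44 and overlapping libraries, also a description only. Summed cardiomyocyte markers were 28.7 to 67.4 CPM in these KO libraries and 92.1 to 359.4 CPM in WT, and their part in the VIM values was not tested.

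In the step to day 4.5, VIM in KO had a log2 fold change of -0.70 ± 0.21, with overlapping libraries. The KO libraries of day 4.5 spread more widely than those of WT: the 3 cl4 libraries had 416, 450.3 and 695 CPM, cl14 had 749, cl46 had 1158 and cl51 had 1324 CPM. All 3 cl4 libraries were thus below the other clones, and WT libraries (472 to 983 CPM) lay within the KO range. The cl4 libraries at 416 and 450.3 CPM were those of sets A and B, and the other clones were all in set C. WT levels also went with the set, with means of 476 (A), 812 (B) and 947 CPM (C). Clone and set thus cannot be told apart for those cl4 libraries, and within set C cl4 had 695 and cl14 749 CPM. The difference between KO and WT at day 4.5 was 0.02 ± 0.21 (95% interval -0.41 to 0.44, adjusted p = 0.97). The KO libraries of day 7.5 were cl4_R2, cl4_R3 and cl14_R1, and those of the same name had 450.3, 695 and 749 CPM at day 4.5. The clones cl46 and cl51, highest at day 4.5, gave no library at day 7.5. Their part in the step that follows was not tested. By day 7.5, KO libraries had 303, 338 and 348 CPM, all below day 4.5 and a fall of 1.19 ± 0.27 on the log2 scale (adjusted p = 0.0034) that was lost with only the libraries of those days fitted (-1.18, adjusted p = 0.0615). They were also all below the WT libraries of that day, but the difference (-0.68 ± 0.30, 95% interval -1.29 to -0.08) did not pass the test in the fit of the whole arm (adjusted p = 0.78); with only the 6 libraries of day 7.5 fitted it was -0.67 with adjusted p = 0.0132. Summed cardiomyocyte markers were 21912.4 to 26355.4 CPM in these KO libraries and 26918.6 to 29249.8 CPM in WT, and their part in the VIM values was not tested.

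**Figure D1:**
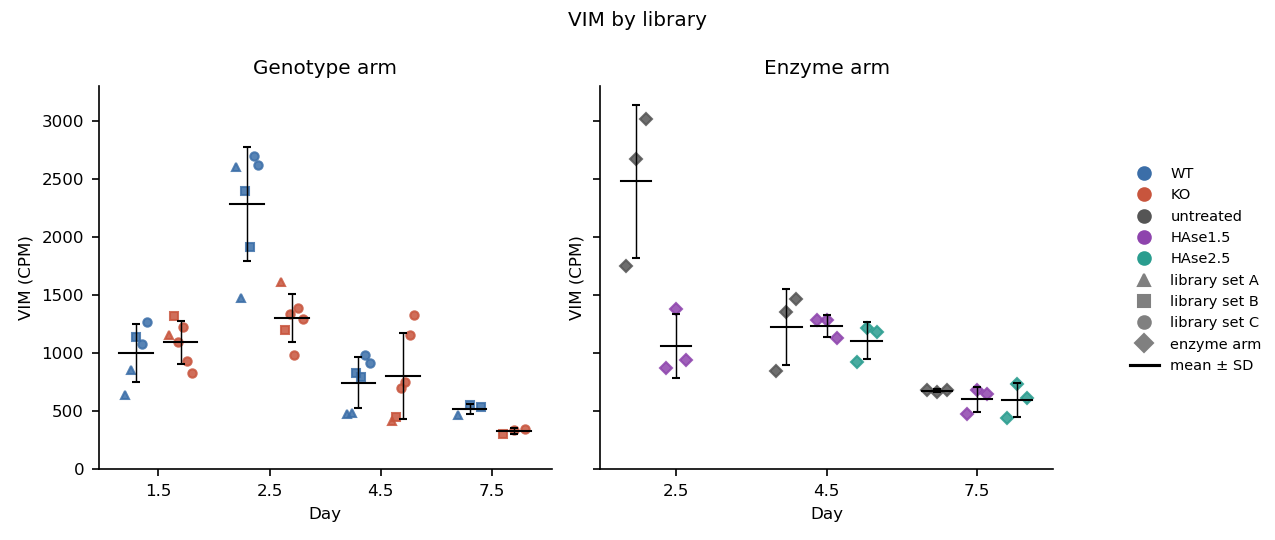
VIM in CPM (y axis) by day (x axis) in the genotype arm (left) and the enzyme arm (right); each symbol is 1 library, its shape gives the library set, and bars are the mean ± SD. WT (1474 to 2698 CPM) and untreated (1747 to 3016 CPM) libraries stand highest at day 2.5, while KO and HAse1.5 libraries of that day lie between 868 and 1614 CPM.

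In the enzyme arm, untreated libraries at day 2.5 had 1747, 2674 and 3016 CPM of VIM in the lines TNNI1, WT and TNNT2, and HAse1.5 libraries had 868, 1379 and 937 CPM. The 3 HAse1.5 libraries were each below every untreated one, a log2 difference of -1.26 ± 0.23 that is given as a description because it chose the gene. The next member by its difference over its error was ZEB2, with -0.65 ± 0.31 (95% interval -1.30 to -0.005) and overlapping libraries, also a description only. Summed cardiomyocyte markers were 52.2 to 102.3 CPM under HAse1.5 and 200.2 to 427.9 CPM untreated, without overlap, and their part in the VIM values was not tested. By day 4.5 the groups overlapped: untreated libraries had 847, 1354 and 1469 CPM, HAse1.5 had 1288, 1285 and 1128 CPM, and HAse2.5 had 924, 1213 and 1183 CPM. VIM in untreated cardioids had a log2 fold change of -1.15 ± 0.23 from day 2.5 to 4.5, without overlap. Neither HAse2.5 against untreated at day 4.5 (-0.17 ± 0.23, adjusted p = 1) nor HAse1.5 against untreated at day 7.5 (-0.29 ± 0.23, adjusted p = 0.58) passed. At day 7.5 untreated libraries had 676 ± 10.2 CPM of VIM, HAse1.5 libraries 599 ± 110.3 CPM and HAse2.5 libraries 596 ± 149 CPM (SD, n = 3 each). The step of untreated cardioids from day 4.5 to 7.5 (-0.73 ± 0.23) missed the threshold (adjusted p = 0.058) and passed it with no filter on low counts (-0.75, adjusted p = 0.0015), with the line as a block (-0.69, adjusted p = 0.0209), with DESeq2 (adjusted p = 0.0475), and without the TNNI1 library of day 4.5 (-0.93, adjusted p = 0.0245).

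Of the SNAI factors, SNAI2 had a sharp peak at day 2.5 in both genotypes and SNAI1 was highest at day 1.5. SNAI2 encodes the repressor SLUG, known from migrating mesoderm and neural crest. WT libraries had 3.01, 6.2, 6.71, 10.4 and 14.9 CPM at day 1.5 and 18, 38.5 and 49.2 CPM (lowest, median, highest) at day 2.5, without overlap. SNAI2 rose with a log2 fold change of 2.02 ± 0.45 in WT (adjusted p = 0.00055) and 2.15 ± 0.42 in KO (adjusted p = 0.00011), where it went from a median of 8.6 CPM to a median of 45 CPM. It then fell by 3.54 ± 0.48 in WT (adjusted p = 1.2e-07) and by 4.28 ± 0.50 in KO (adjusted p = 7e-09) on the log2 scale, to medians of 2.23 and 1.01 CPM at day 4.5. Of the 6 KO libraries of day 4.5, 3 had 0 counts, all from cl4 or cl14, while cl46 and cl51 kept 5.92 and 5.79 CPM. At day 7.5 SNAI2 was at the floor in WT and KO.

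At day 2.5, SNAI2 had a mean of 47.2 ± 12.6 CPM in KO (SD, n = 6) and 37.7 ± 10.7 CPM in WT (n = 6), with overlapping libraries. Untreated cardioids had 32.2, 25.9 and 11.2 CPM of SNAI2 at day 2.5 and 0.682, 7.1 and 10.4 CPM at day 4.5, a fall of 2.05 ± 0.68 on the log2 scale (adjusted p = 0.03). This call was lost without the library of line TNNI1 or of line WT at either day (adjusted p 0.0646 to 0.129 in those 4 fits) and without line WT at all days (0.0991). HAse1.5 libraries of day 2.5 had 13, 22.4 and 17.5 CPM, within the untreated range. At day 7.5, untreated libraries (2.68, 5.74 and 5.19 CPM) were above all HAse1.5 (2.45, 1.44 and 0.697 CPM) and all HAse2.5 libraries (0.692, 0 and 1.96 CPM), both of which were at the floor. The lowest untreated library itself had 3 counts. By its group mean against the floor of 3 counts per library, untreated was at least 1.86-fold higher than HAse1.5. By the same measure it was at least 2.19-fold higher than HAse2.5. Neither comparison passed the test (adjusted p = 0.357 and 0.298).

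SNAI1, the founding member of the family and an early repressor of E-cadherin at the primitive streak, had 44.2, 21.1, 21.9, 4.61 and 3.1 CPM in the WT libraries of day 1.5. The 3 values above 20 were those of sets A and B, and the set C libraries were low. KO libraries spanned 0 to 35.7 CPM (median 9.33), with the set A library highest. Levels at day 2.5 were 2.09 to 18.8 CPM in WT and 1.04 to 11.5 CPM in KO, and the step from day 1.5 did not pass in WT (-1.56 ± 0.69, adjusted p = 0.082) or KO (-1.54 ± 0.71, adjusted p = 0.092). The WT step passed when same-named libraries of different days were paired as a block (-1.40, adjusted p = 0.0218), and when any 1 of WT_TU_R1 at day 2.5, cl43_WT_UT or TNT2 at day 1.5 was left out (adjusted p 0.0264 to 0.0479); the KO step passed without cl14_R1 at day 1.5 (adjusted p = 0.0399). By day 4.5, SNAI1 fell by 2.21 ± 0.79 in WT (adjusted p = 0.027) on the log2 scale. In KO it fell to the floor, so that day 2.5 was at least 2.49-fold higher by the group mean (adjusted p = 0.0198). The WT call was lost without WT_R1 or WT_TU_R1 of day 2.5, or without WT_R2, WT_TU_R2 or cl43_WT_UT of day 4.5 (adjusted p 0.0525 to 0.124), and without set A (0.0799), and the KO call without cl46_R1 of day 2.5 (0.0654). Both calls were also lost with no filter on low counts (0.0683 in WT and 0.0663 in KO). In the enzyme arm SNAI1 had 0 to 9.99 CPM in all 24 libraries.

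**Figure D2:**
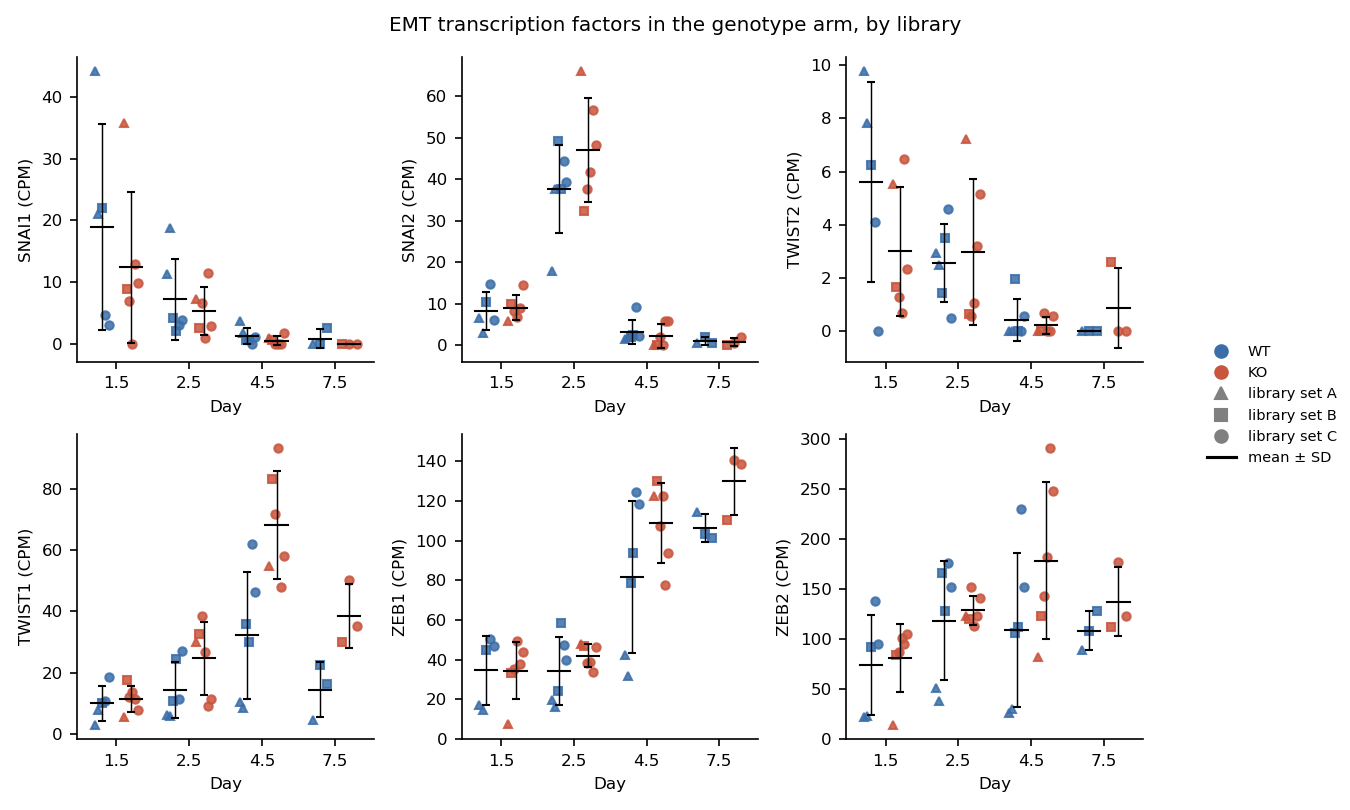
CPM (y axis) of 6 transcription factors by day (x axis) in WT and KO libraries; each symbol is 1 library, its shape gives the library set, and bars are the mean ± SD. SNAI2 peaks at day 2.5, SNAI1 and TWIST2 are near 0 by day 4.5, and TWIST1 and ZEB1 are higher at day 4.5 than at day 2.5; the set A libraries are among the lowest for ZEB2 in WT.

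TWIST1, a factor of cranial mesenchyme, limb and heart cushion cells, rose as SNAI2 fell. WT libraries had 5.86, 11 and 27 CPM (lowest, median, highest) at day 2.5 and 8.28, 32.9 and 62 CPM at day 4.5. The ranges overlapped, and the 2 lowest libraries of day 4.5 were both from set A. TWIST1 rose with a log2 fold change of 1.20 ± 0.43 (adjusted p = 0.027), a call that was lost without WT_R1, WT_TU_R1, WT_R2 or cl43_WT_UT of day 2.5 or without cl43_WT_UT or TNT2 of day 4.5 (adjusted p 0.0528 to 0.104), with no filter on low counts (0.0709) and with only these libraries fitted (0.0983). In KO it went from 8.93, 28.4 and 38.4 CPM to 47.9, 64.9 and 93.2 CPM, without overlap, and rose by 1.49 ± 0.42 (adjusted p = 0.0052). This call held without each library in turn. With same-named libraries of different days paired as a block, 2 further steps of TWIST1 in KO passed: a rise from day 1.5 to 2.5 (0.83, adjusted p = 0.0144, against 0.91 and 0.11 without the block) and a fall from day 4.5 to 7.5 (-1.16, adjusted p = 0.0136, against -0.76 and 0.505).

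At day 4.5 TWIST1 was at 68.2 ± 17.7 CPM in KO (SD, n = 6) and 32.1 ± 20.7 CPM in WT (n = 6). The groups overlapped, since the set C WT libraries had 46.2 and 62 CPM and the lowest KO library 47.9 CPM. The log2 difference of 1.06 ± 0.41 (95% interval 0.23 to 1.89) did not pass (adjusted p = 0.14), and it passed with the library set as a block (1.08, adjusted p = 0.0293). With set C alone it was 0.28 (adjusted p = 0.873), and without set A 0.65 (adjusted p = 0.266): in set A, KO had 54.8 CPM beside 8.28 and 10.3 CPM in WT, and in set B 83.1 CPM beside 30.1 and 35.8 CPM. Summed neural crest markers were 6.1 to 28.4 CPM in these KO libraries and 0 to 3.1 CPM in WT. Of these 4 genes, 2 were above the floor in KO, with FOXD3 at 0. In WT 1 of the 4 was above it, with SOX10, FOXD3 and TFAP2B at 0. Summed cardiomyocyte markers were 4313.6 to 13727.2 CPM in KO and 11655.5 to 25772.2 CPM in WT, with overlap. The part of either in the TWIST1 values was not tested. At day 7.5, KO libraries had 29.9, 50.1 and 35.2 CPM and WT libraries 4.62, 22.3 and 16.2 CPM, without overlap. The difference there (1.41 ± 0.62, 95% interval 0.17 to 2.66) did not pass (adjusted p = 0.78).

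The 3 highest TWIST1 levels of the 65 libraries were those of HAse1.5 cardioids of the lines TNNI1 and TNNT2. At day 4.5 the lines TNNI1, WT and TNNT2 had 37.5, 37.3 and 130.0 CPM untreated, 177, 57.9 and 237 CPM under HAse1.5, and 88.4, 19.5 and 128 CPM under HAse2.5. Each line was higher under HAse1.5 than untreated, but the untreated and HAse1.5 libraries overlapped. At day 7.5 the same lines had 29.4, 21.7 and 40.8 CPM untreated, 178, 14.4 and 129 CPM under HAse1.5, and 47.1, 4.7 and 40.6 CPM under HAse2.5. Line WT had the lowest level of the 3 lines in all 8 groups of the arm, untreated ones included, and it was lower under HAse1.5 than untreated at day 7.5 while the other lines were higher. HAse1.5 against untreated at day 7.5 did not pass (1.69 ± 0.90, 95% interval -0.20 to 3.58, adjusted p = 0.36). Without line WT, an alternative added after the values were seen, it was 1.99 with adjusted p = 0.0479. Summed cardiomyocyte markers at day 7.5 were 7879.6 to 12919.3 CPM under HAse1.5 and 25396.7 to 32043.0 CPM untreated, without overlap, and their part in the values of that day was not tested. In untreated cardioids the step from day 2.5 (10.7, 7.15 and 26.9 CPM) to day 4.5 had no overlap and a log2 fold change of 2.01 ± 0.95 (adjusted p = 0.14), and it passed with the line as a block (2.14, adjusted p = 0.0058) and without line WT (2.01, adjusted p = 0.0183).

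TWIST2, a close relative of TWIST1 known from dermal and skeletal progenitors, was low throughout and nearly gone after day 2.5. WT libraries had 9.79, 7.82, 6.27, 4.1 and 0 CPM at day 1.5 and 0.492 to 4.59 CPM at day 2.5. At day 4.5, 4 of 6 WT and 4 of 6 KO libraries had 0 counts and both groups were at the floor. The falls from day 2.5 passed in WT (adjusted p = 0.026) and KO (adjusted p = 0.013). By group means against the floor, day 2.5 was at least 1.3-fold higher in WT and at least 1.39-fold higher in KO. The WT call was lost without WT_R1, WT_TU_R1, WT_TU_R2 or cl43_WT_UT of day 4.5, without cl43_WT_UT of day 2.5 (adjusted p 0.0514 to 0.0668), or without set A (0.181). In the enzyme arm its highest value was 3.2 CPM, in a HAse1.5 library of day 2.5.

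ZEB1 and ZEB2, repressors that hold back epithelial genes in mesenchymal cells, were present at every day. ZEB1 had 14.7 and 17.1 CPM in the set A libraries of WT at day 1.5 and 44.9, 47 and 50.2 CPM in the others. It had 16.3, 32 and 58.6 CPM (lowest, median, highest) at day 2.5. At day 4.5 WT had 32, 86.4 and 125 CPM, a rise of 1.29 ± 0.33 on the log2 scale (adjusted p = 0.0018) that held without each library in turn, although the set A libraries of day 4.5 (42.5 and 32 CPM) overlapped day 2.5. In KO it went from 33.8, 42.6 and 48.1 CPM to 77.5, 115 and 130.1 CPM, without overlap, and rose by 1.40 ± 0.33 (adjusted p = 0.00085). At day 7.5 WT libraries held ZEB1 at 106 ± 7.01 CPM and KO libraries at 129.9 ± 16.7 CPM (SD, n = 3 each), and neither step from day 4.5 passed (adjusted p = 0.683 and 0.799).

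In untreated cardioids of the enzyme arm, ZEB1 levels were higher at each later day. Libraries had 46.5, 51 and 53.3 CPM at day 2.5, 63.5, 77.3 and 85.5 CPM at day 4.5 and 130.3, 107 and 148 CPM at day 7.5, so the days did not overlap. The last step passed (0.89 ± 0.21, adjusted p = 0.011), and the first did not (0.46 ± 0.21, adjusted p = 0.12). The call was lost without the TNNT2 library of day 7.5 (0.75, adjusted p = 0.0754) and with only these libraries fitted (0.91, adjusted p = 0.0524). HAse1.5 libraries of day 4.5 had 61.4, 89.9 and 53 CPM, and HAse2.5 libraries 98.5, 99.1 and 84.6 CPM. The difference of HAse2.5 from untreated at day 4.5 did not pass (0.29 ± 0.21, 95% interval -0.14 to 0.71, adjusted p = 0.92), and at day 7.5 HAse2.5 libraries (117, 138 and 147 CPM) overlapped untreated ones.

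ZEB2 passed in 0 of the comparisons with edgeR and the main design. It had means of 73.8, 118, 109 and 108 CPM in WT and 80.9, 129, 178 and 137 CPM in KO at days 1.5, 2.5, 4.5 and 7.5. The WT levels went with the library set: at day 4.5 set A had 25.3 and 30.2 CPM, set B 106 and 112 CPM, and set C 152 and 230.1 CPM. KO libraries of day 4.5 ranged from 82.3 CPM (cl4_R1, set A) to 291 CPM (cl46), and the clones cl46 and cl51, high for VIM, were also the 2 highest for ZEB2. In alternatives, 2 steps of ZEB2 in KO passed: day 1.5 to 2.5 with same-named libraries of different days paired as a block (0.61, adjusted p = 0.0355), and day 2.5 to 4.5 without set A (0.56, adjusted p = 0.0179), an alternative added after the values were seen. In the enzyme arm ZEB2 was highest under HAse1.5 at day 7.5 (201, 312 and 376 CPM), which overlapped untreated (162, 153 and 283 CPM; log2 difference 0.45 ± 0.31, adjusted p = 0.49). At day 4.5 all HAse1.5 libraries (215, 259 and 228 CPM) were above all untreated ones (102, 209.6 and 200.3 CPM), a difference of 0.38 ± 0.31 given without a test.

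**Figure D3:**
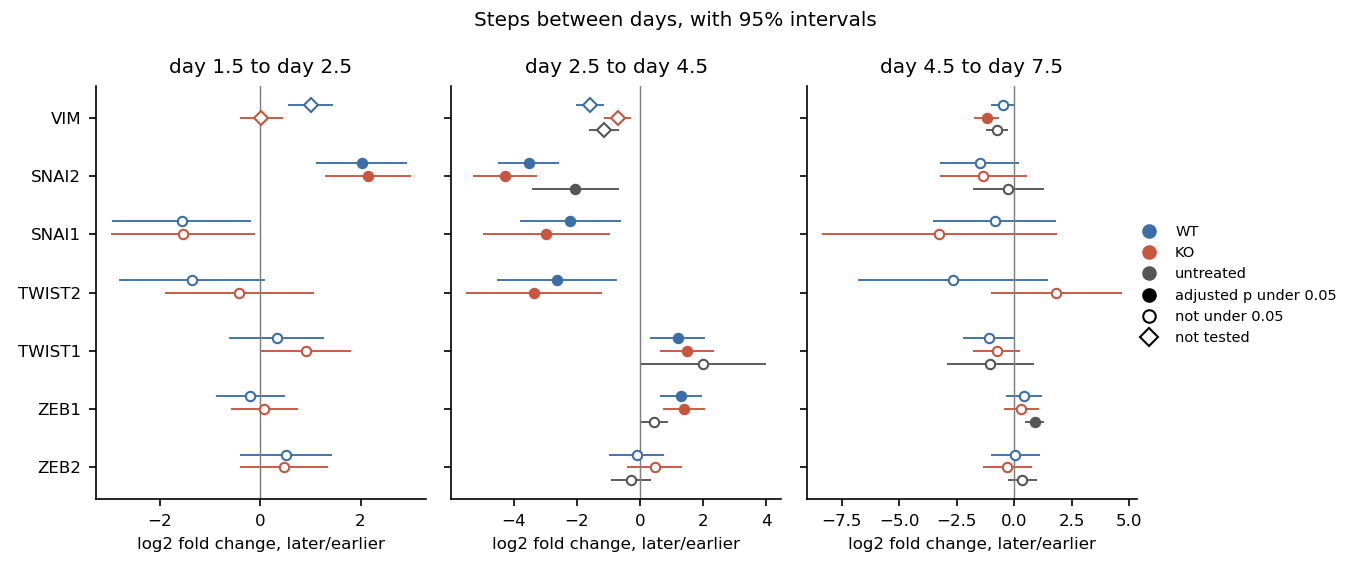
Log2 fold change (x axis) of 7 genes from one day to the next in WT, KO and untreated cardioids; lines are 95% intervals, and filled points have an adjusted p under 0.05, open circles do not, and open diamonds carry no test because the values chose the gene. From day 2.5 to 4.5 VIM and SNAI2 lie left of 0 and ZEB1 right of 0 in all 3 groups.

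Read against all genes, the members' changes between days stand beside broad change. The counts that follow leave out VIM in steps to and from day 2.5, and PRRX1 where untreated libraries of day 4.5 enter. From day 1.5 to 2.5, 1 of the 6 genes tested passed in WT (30.1% of all genes tested did) and 1 of 6 in KO (33.3%), SNAI2 in both. From day 2.5 to 4.5, 5 of 6 passed in WT (34.5%) and 5 of 6 in KO (30.5%), 2 higher and 3 lower in each, with a median log2 fold change of -1.15 in WT and -1.26 in KO; the all-gene medians were 0.03 and 0.00. The genes called were SNAI1, SNAI2, TWIST1, TWIST2 and ZEB1 in both genotypes, and ZEB2 in neither. In WT the count was 3 with no filter on low counts or without set A and 2 with only these libraries fitted, and in KO it was 3 with only these libraries; SNAI1 and TWIST2 did not pass the filter on low counts in the 2 fits of only these libraries. From day 4.5 to 7.5, 0 of 7 passed in WT (2.7%; edgeR, 0 at an unadjusted p under 0.05 and 0 by DESeq2) and 1 of 7 in KO (6.23%). In untreated cardioids 1 of 4 passed from day 2.5 to 4.5 (23%) and 1 of 5 from day 4.5 to 7.5 (6.37%; 2 of 5 with DESeq2, with the line as a block and without a filter on low counts).

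Between groups of the same day, the contrasts that chose genes were KO at day 2.5 and HAse1.5 at days 2.5 and 4.5. The contrast of HAse1.5 with HAse2.5 at day 4.5 shares libraries with them. Members that passed are not counted in these contrasts, since a pass was part of the choice. Of all genes, 0.993%, 1.14%, 3.48% and 0.361% passed, in the order given. In the other contrasts 0 of the members passed with edgeR and the main design or with DESeq2. For KO against WT these were day 1.5 (0% of all genes, 0 of 7 at an unadjusted p under 0.05), day 4.5 (3.74%, 1 of 7 at an unadjusted p under 0.05) and day 7.5 (0.348%, 2 of 7). VIM and TWIST1 libraries of day 7.5 did not overlap, but the share of all genes doing so was not counted. For the enzyme they were HAse1.5 at day 7.5 (3.33%, 0 of 6), HAse2.5 at day 4.5 (0.22%, 0 of 5), HAse2.5 at day 7.5 (0.659%, 1 of 6) and HAse1.5 against HAse2.5 at day 7.5 (0.00784%, 0 of 6). PRRX1, which is counted in those of day 7.5, passed the filter on low counts only through HAse1.5 libraries. The tests of change in the KO effect from day 1.5 to 4.5 (0.196%) and from day 4.5 to 7.5 (0.159%), and in the HAse2.5 effect from day 4.5 to 7.5 (0%), called 0 of these genes with either tool, and 0 had an unadjusted p under 0.05.

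PRRX1, a factor of mesenchymal progenitors of limb, face and heart cushions, had its highest levels under HAse1.5 at day 4.5, lower ones under HAse1.5 at day 7.5, and at most 7 counts in any library of the other groups. At day 4.5 HAse1.5 libraries had 52 counts (32.3 CPM) in line TNNI1, 1 count (0.864 CPM) in line WT and 65 counts (37.8 CPM) in line TNNT2. 2 libraries were thus far above the third, which lay within the untreated range of 2.05, 0 and 2.09 CPM. By group means HAse1.5 was at least 8.88-fold higher than untreated, which was at the floor, and HAse2.5 libraries had 0.719, 0.781 and 3.85 CPM. These values chose the gene and carry no test. PRRX1 passed the filter on low counts only through HAse1.5 libraries, those that chose it among them. Its tests at day 7.5 are therefore not independent of the choice, and nothing is read from them. At day 7.5 the same lines had 8.15, 0.719 and 8.36 CPM under HAse1.5 and 1.78, 3.83 and 0 CPM untreated. The log2 difference was 1.43 ± 1.08 (95% interval -0.82 to 3.67), a description only. Against HAse2.5, at the floor, HAse1.5 was at least 2.77-fold higher by its mean. The log2 difference there was 1.98 ± 1.12 (95% interval -0.34 to 4.30), also a description only. In the 41 libraries of the genotype arm its highest value was 7 counts, in cl46 at day 4.5.

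The 2 libraries with PRRX1 were among the 3 with most TWIST1 (237 and 177 CPM), the other being TNNI1 under HAse1.5 at day 7.5 (178 CPM). At day 4.5 under HAse1.5 the summed cardiomyocyte markers were 747.8 (TNNI1), 4268.6 (WT) and 1647.1 CPM (TNNT2), so the line without PRRX1 was the highest of the 3; untreated libraries had 17951.2, 9438.4 and 8485.9 CPM. Summed fibroblast markers (5 genes, 3 above the floor under HAse1.5 and 5 untreated) were 513.3 to 1025.9 CPM under HAse1.5 and 819.6 to 2059.2 CPM untreated. Neural crest markers (4 genes, 1 above the floor, FOXD3 at 0, and SOX10 and TFAP2B also at 0 untreated) were 0 to 3.7 CPM under HAse1.5 and 1.4 to 3.6 CPM untreated. Epicardial markers (4 genes, 1 above the floor under HAse1.5 with WT1, TBX18 and UPK3B at 0, and 3 above it untreated) were 0 to 5 CPM and 2.7 to 54.2 CPM. Endothelial markers (5 genes, 3 above the floor under HAse1.5 and 4 untreated) were 10.4 to 21.5 CPM under HAse1.5 and 18.4 to 43.1 CPM untreated. Definitive endoderm markers (4 genes, 3 above the floor) were 13.8 to 32.3 CPM and 41.7 to 138.5 CPM, without overlap. PRRX2, the paralogue, was at 29.9 CPM (20.4 to 43.2) under HAse1.5 and 4.27 CPM (2.05 to 7.99) untreated, without overlap, so that it was high in line WT too; this contrast carries no test here. The part of these cell types in the PRRX1 values was not tested.

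**Figure D4:**
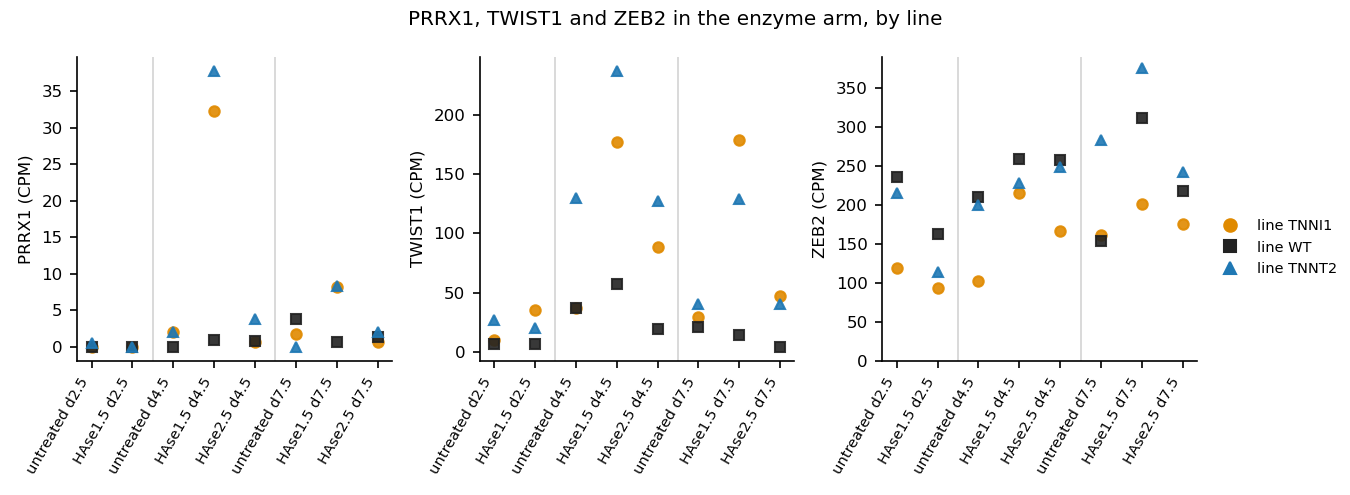
CPM (y axis) of PRRX1, TWIST1 and ZEB2 in the 8 groups of the enzyme arm (x axis), with 1 symbol per library and a colour per line. Lines TNNI1 and TNNT2 carry PRRX1 (32.3 and 37.8 CPM) and high TWIST1 (177 and 237 CPM) under HAse1.5 at day 4.5, while line WT has 0.864 and 57.9 CPM; ZEB2 does not separate the lines in this way.

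Other genes of the pathway were taken from 8 lists of EMT regulators, partners and targets. Their counts stand beside the shares of all genes that passed: 30.1% in WT and 33.3% in KO from day 1.5 to 2.5, 34.5% and 30.5% from day 2.5 to 4.5, 2.7% and 6.23% from day 4.5 to 7.5, 3.74% between KO and WT at day 4.5 and 3.33% for HAse1.5 at day 7.5. The cardiomyocyte markers given above had lower medians in KO at day 4.5 and under HAse1.5 at day 7.5, and their part in the values of the listed genes was not tested. Among related factors of early mesoderm, from day 1.5 to 2.5 in WT 2 of 8 tested genes rose and 4 fell (median log2 fold change -1.09). FOXC2, a forkhead factor of mesoderm, rose from 1.41 to 32.2 CPM, while GSC and EOMES, primitive streak factors, fell from 103 to 1.87 CPM and from 1525 to 68.7 CPM. From day 2.5 to 4.5, 5 of 8 fell in each genotype, among them FOXC1 (-3.40 ± 0.31 in WT, adjusted p = 1.8e-11). At day 4.5, FOXC1 was higher in KO (30.2 against 6.28 CPM, log2 difference 2.17 ± 0.31, adjusted p = 1.9e-05), and the other 7 did not pass. Among inducing ligands and receptors, 4 of 10 rose and 2 fell in WT from day 2.5 to 4.5 (median 0.60), with TGFB2, a ligand of heart cushion EMT, going from 6.12 to 192 CPM and BMP4 from 626 to 132 CPM. In KO at day 4.5, JAG1, a Notch ligand, was the 1 of these 10 to pass (223 against 67.3 CPM in WT, log2 difference 1.68 ± 0.27, adjusted p = 0.00011).

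Dimer partners and inhibitors of TWIST proteins include HAND factors, E proteins and ID proteins. From day 1.5 to 2.5, 4 of 9 rose and 0 fell in each genotype (median log2 fold change 0.69 in WT and 0.64 in KO), among them HAND2 (0.216 to 93.2 CPM in WT) and ID4 (6.32 to 58 CPM). From day 2.5 to 4.5, 2 of 9 rose and 3 fell in each; TCF4, an E protein, fell by 2.23 ± 0.24 in WT and by 1.76 ± 0.24 in KO on the log2 scale. At day 4.5 in KO, HAND2 was higher (287 against 147 CPM, adjusted p = 0.016) and HAND1 lower (164 against 409 CPM, adjusted p = 0.006). HAND2 was also higher under HAse1.5 at day 7.5 (374 against 109.7 CPM, log2 difference 1.65 ± 0.38, adjusted p = 0.018), as was ID4 (1.14 ± 0.30, adjusted p = 0.037), with 3 of 9 higher and 0 lower. Of 9 tested corepressors and stability factors of SNAI and ZEB proteins, LOXL2, an oxidase that binds SNAI1, passed in KO at day 4.5 (22.9 against 68.1 CPM in WT, log2 difference -1.63 ± 0.20, adjusted p = 1.2e-06) and 8 did not.

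Genes that the EMT factors are known to repress moved both ways. In the step from day 1.5 to 2.5 in WT, 3 of 11 epithelial genes rose and 5 fell (median -0.22): CDH1, which encodes E-cadherin, fell from 16.9 to 3.32 CPM (-2.53 ± 0.55, adjusted p = 0.00047), while the keratins KRT19 (108 to 1135 CPM) and KRT8 (260.2 to 1017 CPM) rose. At day 4.5 in KO, 2 of 11 were higher, EPCAM (27.6 against 7.28 CPM, adjusted p = 0.00072) and CDH1 (8.02 against 1.04 CPM, adjusted p = 0.011), and 3 were lower, among them KRT18 (247 against 697 CPM, adjusted p = 2.4e-06) and KRT8 (188 against 445 CPM, adjusted p = 0.0014). Of the factors that oppose EMT, 3 of 10 passed the filter in the genotype arm, and 0 of 3 passed at day 4.5 between KO and WT.

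Of the mesenchymal genes induced in EMT, 6 of 18 rose and 4 fell in WT from day 1.5 to 2.5, and 7 rose and 4 fell in KO, with medians of 0.91 and 0.85 (all genes 0.01 and 0.02). From day 2.5 to 4.5, 6 rose and 6 fell in WT (median 0.19) and 8 rose and 7 fell in KO (median 0.44). FN1, which encodes fibronectin, rose from 74.1 to 1003 CPM in the first step, and CDH2, which encodes N-cadherin, fell from 521 to 194 CPM and then rose to 685 CPM. From day 4.5 to 7.5, 0 of 18 rose and 6 fell in WT (median -1.11, all genes -0.05), and 1 rose and 6 fell in KO. At day 4.5, KO had 2 of 18 higher and 0 lower: PDGFRA (403 against 179.8 CPM, log2 difference 1.08 ± 0.22, adjusted p = 0.0019) and FN1 (6551 against 3566 CPM, adjusted p = 0.041). Under HAse1.5 at day 7.5, FN1 was higher (4355 against 858 CPM, adjusted p = 0.0021) and CDH2 lower (613 against 1053 CPM, adjusted p = 0.032), and the other 15 of 17 did not pass. Among filament genes related to VIM, 5 of 12 rose and 3 fell in WT from day 2.5 to 4.5; NES, the partner filament nestin, rose from 338 to 1055 CPM, while VIM went from 2285 to 745 CPM. NES (677 against 1055 CPM) and LMNA (35.5 against 65.4 CPM) were lower in KO at day 4.5 (adjusted p = 0.017 and 0.010), where VIM did not pass.

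Across the 16 group means of log2 CPM, and over 12566 genes tested in both arms, the genes most like each member are given as a description; the points share libraries and lines, and most genes move with the day. VIM was most like DLEU2 (Pearson r = 0.924), the gene ENSG00000271936 (0.917) and TCEAL9 (0.915). SNAI2 was most like SH3BGRL3 (0.958) and ORC6 (0.945), and TWIST1 most like LRFN5 (0.934) and ZNF555 (0.913). ZEB1 was most like FAM120AOS (0.971), the gene ENSG00000258461 (0.970) and GABBR1 (0.966), and ZEB2 most like FAM114A1 (0.938) and ATXN3 (0.935). Among members, VIM went with SNAI2 (r = 0.83) and against ZEB1 (-0.81), and SNAI2 against ZEB1 (-0.84), over the same 16 points. SNAI1, TWIST2 and PRRX1 had mean levels under 5 CPM and were not compared.

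Reads of overlapping genes could be split with some members, since the use of strand in counting is not given in the sources used here. VIM-AS1 shares 641 exon bases with VIM on the opposite strand and had at most 8 counts in a library. ZEB1-AS1 shares 366 bases with ZEB1 (at most 16 counts), ZEB2-AS1 shares 1299 bases with ZEB2 (at most 13 counts), and an antisense gene shares 141 bases with TWIST1 (at most 3 counts). The processed pseudogenes SNAI1P1, VIM2P and ZEB2P1 had at most 0, 1 and 4 counts.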

How the data were processed

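The authors deposited whole-number read counts per gene and library for 3′ mRNA libraries. Counting used featureCounts of Subread 1.6.2 on hg38 (GRCh38), per the submitters' processing notes; the aligner and the use of strand are not given in the sources used here. The table holds 58735 genes, and 4 of its columns match no sample and were not used. Totals of the 65 libraries were 831062 to 3574843 counts, which limits precision for genes of few counts. CPM was computed as count over library total. Each arm was fitted over all its groups with edgeR 4.0.16 in R 4.3.3 (TMM, filterByExpr with a minimum count of 10, robust quasi-likelihood F-test), with Benjamini-Hochberg adjustment over the 13797 (genotype) or 12748 (enzyme) genes tested and a threshold of 0.05; log2 CPM used a prior count of 2. The code was tested on simulated data. The 8 members and the gene lists were chosen with earlier results of these data known. All members are named; of each list, up to 2 higher and 2 lower genes with the smallest adjusted p could be named per comparison. Some of the genes most like a member are not reported here. Per the labels' protocol, every condition was collected from 3 or more biological replicates, but repeats of 1 clone or line are not said to be separate cultures, so p-values measure only the spread between these libraries. Of 115 replicate pairs, 0 agreed within sampling noise (chi-square per degree of freedom 2.099 to 81.46). Same-numbered enzyme libraries share a line, as do same-named genotype libraries of different days, so those numbers pair samples. Deviations from the group mean were correlated only between groups of the same day. The correlation was above 0.1 in 15 of 21 enzyme pairs of the same line. It was above 0.1 in 26 of 37 pairs of a WT and a KO library of the same library set. Same-named genotype libraries of different days were not checked in this way. Alternatives were DESeq2 1.42.0, other size factors, no filter, fits of only the compared libraries, replicate blocks, and leaving out each library, set A or line WT.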

Additional observations from a re-analysis of the deposited data

Results flagged for a closer look

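Of 42 sets of 4 to 6 libraries of 1 gene and group, 5 held a library whose gap to its nearest neighbour was large for the range of the group by Dixon's criterion; chance gives about 1 in 20. SNAI1 in KO at day 1.5 was 35.71 CPM (116 counts) in cl4_R1, with the next library at 12.97 CPM. ZEB2 in the same library was 13.55 CPM (44 counts), and the nearest other KO library had 83.58 CPM. This library was the only set A library of its group. WT libraries of day 1.5 in set A had 22.1 and 22.6 CPM of ZEB2, beside 91.9 to 137.9 CPM in the other sets. For SNAI1 they had 21.1 and 44.2 CPM, beside 21.9 CPM in set B and 3.1 and 4.61 CPM in set C. SNAI2 in WT at day 2.5 was 17.99 CPM (49 counts) in WT_R1, below the next at 37.63 CPM. SNAI2 in WT at day 4.5 was 9.228 CPM (14 counts) in cl43_WT_UT, above the next at 2.505 CPM. PRRX1 in WT at day 2.5 was 1.966 CPM (4 counts) in TNT2, with the next library at 0.5099 CPM.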

How the results depend on the processing

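The number of the 8 genes called, without VIM or PRRX1 where their values chose them, changed by over 1.5 times as follows. With only the compared libraries fitted it was 1 for KO against WT at day 7.5, 2 for WT and 3 for KO from day 2.5 to 4.5 (each 5 in the main design), 0 for KO from day 4.5 to 7.5 and 0 for untreated from day 4.5 to 7.5. With no filter, and without set A, it was 3 for WT from day 2.5 to 4.5. Pairing by a replicate block gave 1 for KO against WT at day 4.5, 2 for WT and 3 for KO from day 1.5 to 2.5, 2 for KO from day 4.5 to 7.5, 2 for untreated from day 2.5 to 4.5 and 2 for untreated from day 4.5 to 7.5, the last also 2 with DESeq2 and with no filter; beyond the calls given above the block changed no other call. Without line WT, HAse1.5 at day 7.5 had 1. Leaving out 1 library gave 1 to 2 for WT and 1 to 2 for KO from day 1.5 to 2.5, 2 to 5 for WT and 4 to 5 for KO from day 2.5 to 4.5, 0 to 1 for untreated from day 2.5 to 4.5 and 0 to 2 for untreated from day 4.5 to 7.5. VIM, near 0 in KO against WT at day 4.5, was -0.0799 with the set as a block, -0.0818 without set A and -0.17 to 0.14 without 1 library. In KO from day 1.5 to 2.5 it was -0.0109 with no filter, -0.0024 with the name as a block and -0.0513 to 0.0862 without 1 library. VIM at day 2.5 was -1.11 to -0.80 for KO and -1.52 to -1.08 for HAse1.5, and PRRX1 at day 4.5 was 3.38 to 4.41 against untreated, over all alternatives. Counts over all genes moved as well. The replicate block raised them in the comparisons named for it above. For KO against WT at day 4.5 they went from 516 to 827. From day 1.5 to 2.5 they went from 4153 to 5321 in WT and from 4597 to 5735 in KO. From day 4.5 to 7.5 they went from 859 to 1223 in KO and from 812 to 1032 in untreated. Untreated from day 2.5 to 4.5 went from 2932 to 3184. With only those libraries, KO against WT at day 7.5 went from 48 to 193. For HAse2.5 at day 4.5 the count of 28 became 201 with only those libraries, 165 with no filter, 90 with DESeq2 and 4 without line WT. Beyond the smaller fits given above, the cause was not tested. Size factors by RLE moved the median of all genes by at most 0.0404.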
